A study of Mus musculus with 24 samples.

Results

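The genes described here are 48 genes of DNA replication and S phase, compared in blood progenitor cells of mice with and without a Flt3 internal tandem duplication and a deletion of Ern1. They were chosen by name, as the entries of the expression files whose gene symbol is on a written list, and all 48 were found among the 23991 symbols of the files. RNA sequencing was done on 24 libraries from sorted mouse bone marrow on the C57BL/6 background: 2 populations, 4 genotypes and 3 libraries in each of the 8 groups. Granulocyte-macrophage progenitors (GMP) are committed to the granulocyte and monocyte lineages, and lineage-negative, Sca1-positive, cKit-positive cells (LSK) hold the stem cells and the earliest progenitors. The genotypes were Ern1(fl/fl)-VavCre-Flt3-ITD, named IRE1_KO_ITD; Flt3-ITD, named ITD; Ern1(fl/fl)-VavCre, named IRE1_KO; and wild type, named WT. The ITD is an activating duplication within the receptor kinase Flt3, common in human acute myeloid leukaemia, and Ern1 encodes IRE1, an endoplasmic reticulum stress sensor. In the VavCre groups the Cre recombinase is driven by the Vav promoter, which is active in blood cells, so the deletion is not limited to LSK or GMP. The labels do not say whether the 3 libraries of a group came from separate animals or pools, and give no ages or number of Flt3-ITD alleles, so the p-values measure only the spread between these libraries.

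Before a cell copies its DNA, the origin recognition complex, Cdc6 and Cdt1 load the MCM helicase onto origins, and Mcm10, Cdc45 and the GINS complex then switch the helicase on. DNA polymerases alpha, delta and epsilon synthesise the new strands, and the Pcna clamp that the Rfc loader opens holds polymerase delta on the DNA. Fen1 and Lig1 join the lagging-strand pieces, and ribonucleotide reductase supplies deoxynucleotides. Many of these genes are transcribed by E2F factors once cyclins and their kinases, cyclin E among them, have released the retinoblastoma block. Most stem cells of the bone marrow are out of the cycle while progenitors cycle.

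The promoters of the genes were read for the letters that E2F factors are known to bind, because this is the feature that most S phase genes are known to share. RefSeq promoter windows (GRCm38.p6), from 250 bases before to 50 bases after a start site, were matched for 40 of the 48 genes, as 46 windows. The words searched, on both strands, were TTTGGCGC, TTTCCCGC, TTTGCCGC and TTTCGCGC, and a word and its overlap with another were both counted. At least 1 of them stood in 17 of the 46 windows, in 15 of 56 windows of 55 other replication genes (26.8%), in 2 of 34 windows of 37 G2 and mitosis genes (5.9%), and in 744 of 32851 windows of all genes (2.3%). By contrast the CHR element TTTGAA, known from mitotic genes, stood in 5 of the 46 windows (10.9%), in 28 of the 34 windows of G2 and mitosis genes (82.4%) and in 17.9% of all windows. The CCAAT box stood in 58.7% of the windows of the 48 genes, 79.4% of those of G2 and mitosis genes and 37.4% of all windows. The windows given here are those of 4 genes with such a word that are named in the results, written 5′ to 3′ on the strand of the gene, with the matched letters in capitals: Cdc6 at chr11:98907901-98908200 (plus strand), Cdca7 at chr2:72475969-72476268 (plus strand), Hells at chr19:38930740-38931039 (plus strand) and Mcm6 at chr1:128359656-128359955 (minus strand).
Cdc6: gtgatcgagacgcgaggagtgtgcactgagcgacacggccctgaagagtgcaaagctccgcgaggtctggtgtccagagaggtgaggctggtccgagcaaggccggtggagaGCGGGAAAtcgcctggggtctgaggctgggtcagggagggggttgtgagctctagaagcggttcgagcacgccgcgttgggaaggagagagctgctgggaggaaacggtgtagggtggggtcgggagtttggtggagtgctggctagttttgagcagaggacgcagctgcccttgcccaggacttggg
Cdca7: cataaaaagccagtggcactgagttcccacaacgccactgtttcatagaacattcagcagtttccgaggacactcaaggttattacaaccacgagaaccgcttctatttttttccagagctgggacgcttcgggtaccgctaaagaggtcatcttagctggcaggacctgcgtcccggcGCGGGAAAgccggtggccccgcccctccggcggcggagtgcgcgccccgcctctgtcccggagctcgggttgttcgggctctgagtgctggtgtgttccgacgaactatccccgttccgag
Hells: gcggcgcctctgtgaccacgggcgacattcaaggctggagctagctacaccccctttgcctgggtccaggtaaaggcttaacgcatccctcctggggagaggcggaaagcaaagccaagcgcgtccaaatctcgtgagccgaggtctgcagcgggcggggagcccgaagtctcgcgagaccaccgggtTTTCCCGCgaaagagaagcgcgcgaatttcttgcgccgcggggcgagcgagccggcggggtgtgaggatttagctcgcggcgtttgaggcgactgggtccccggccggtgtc
Mcm6: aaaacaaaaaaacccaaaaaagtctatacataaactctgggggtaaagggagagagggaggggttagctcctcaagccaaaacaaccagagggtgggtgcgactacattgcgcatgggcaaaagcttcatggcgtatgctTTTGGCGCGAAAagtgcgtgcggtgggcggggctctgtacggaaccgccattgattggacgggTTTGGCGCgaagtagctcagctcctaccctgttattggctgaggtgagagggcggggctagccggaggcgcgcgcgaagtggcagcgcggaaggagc
The words began 138 bases before the start site in Cdc6, 71 before it in Cdca7 and 62 before it in Hells, and Mcm6 held 3 matches, of which 2 overlap. A match is a description of the letters and not evidence of binding in these cells, and windows without one, such as those of Mcm10, Rrm1 and E2f1, only lack these 4 words.

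The values are FPKM, fragments scaled to transcript length in kilobases and to the mapped total of the library, so levels can be set side by side between genes. FPKM summed to between 510361 and 673177 per library, no read totals are in the files, and the ratios of low values put the relative depth of the libraries between 0.918 and 1.29 of WT LSK replicate 1. Ly6a, which encodes Sca1, was higher in each genotype in LSK than in GMP (WT GMP median 21.8 and WT LSK median 195.9 FPKM), and the granule genes Mpo and Elane were higher in GMP (for Mpo, WT GMP median 9758 and WT LSK median 783.4 FPKM). Flt3 was lower in ITD LSK (median 55.2 FPKM) than in WT LSK (144.5 FPKM). Ern1 was not lower in the IRE1_KO groups (median 19.3 FPKM in IRE1_KO GMP and 9.20 FPKM in WT GMP), and a value over the whole gene checks neither a deletion of part of it nor the labels. A 1ng tag stands in the headers of the 3 IRE1_KO LSK libraries and of no others. By Xist and Y-linked genes the 6 ITD libraries were all female, while the other genotypes held both sexes.

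All 48 genes were expressed and all 48 passed the filter of 1 FPKM in 3 or more libraries of each fit. The highest mean over the 24 libraries was that of Pcna (293.5 FPKM), the sliding clamp, followed by the helicase subunits Mcm6 (271.1) and Mcm7 (221.9). The lowest were those of the transcription factor E2f2 (3.57), the fork checkpoint adaptor Clspn (4.96) and the origin recognition subunit Orc1 (7.82). The ratio of the highest to the lowest library had a median of 1.91 over the 48 genes. It was smallest for Gins4 (1.42), the primase subunit Prim2 (1.45) and the dUTPase Dut (1.46), with Pcna at 1.47. It was largest for Ccne1 (12.1), which encodes cyclin E1, E2f1 (6.40), the histone chaperone subunit Chaf1a (4.93), cyclin E2 gene Ccne2 (4.44) and E2f2 (4.14). The widest ranges were thus those of the 4 E2F and cyclin E genes and Chaf1a. The highest value was in IRE1_KO LSK replicate 2, which carries the 1ng tag, for E2f1, Chaf1a and E2f2. It was in ITD GMP replicate 1 for Ccne1 and in IRE1_KO_ITD GMP replicate 2 for Ccne2. Of the 8 group means of a gene, the lowest was that of WT LSK for 27 of the 48 genes, against 19.9% of the 12348 genes tested over all libraries. Among the 4 LSK groups it was WT LSK for 35 of the 48 (72.9%), against 39.5% of genes tested. This was not particular to the replication genes. Of 37 G2 and mitosis genes, WT LSK was the lowest of the 8 groups for 17 (45.9%) and of the 4 LSK groups for 26 (70.3%).

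**Figure D1:**
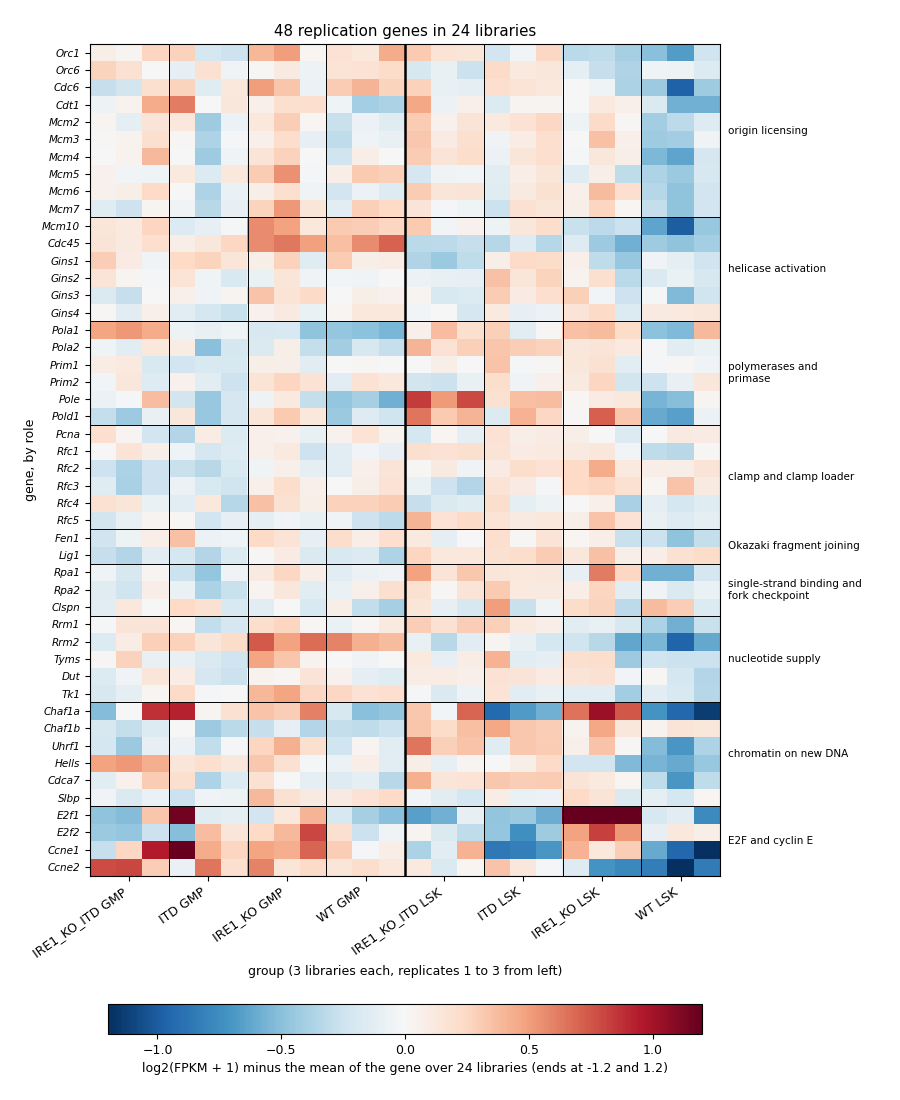
Each cell is log2(FPKM + 1) of 1 gene (rows, grouped by role) in 1 library (columns, 3 per group, GMP on the left and LSK on the right), minus the mean of the gene over the 24 libraries; colours end at 1.2 either way. The WT LSK columns are blue for most origin licensing genes, E2f1 is dark red in the 3 IRE1_KO LSK columns, and E2f1, Chaf1a and Ccne1 are dark red together in ITD GMP replicate 1.

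Summed over the 48 genes, the libraries held 3507, 3549 and 3784 FPKM in IRE1_KO_ITD GMP, 3179, 3393 and 3648 in ITD GMP, 3688, 4069 and 4243 in IRE1_KO GMP, and 3535, 3725 and 3784 in WT GMP. The LSK sums were 3687, 3766 and 4003 FPKM in IRE1_KO_ITD, 3844, 3882 and 3929 in ITD, 3478, 3754 and 4142 in IRE1_KO, and 2948, 3092 and 3266 in WT. WT LSK was the only group whose 3 libraries all lay below every library of the other LSK groups. The 37 G2 and mitosis genes summed to 1728, 1757 and 2152 FPKM in ITD LSK and 1432, 1695 and 1765 in WT LSK, which overlap.

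**Figure D2:**
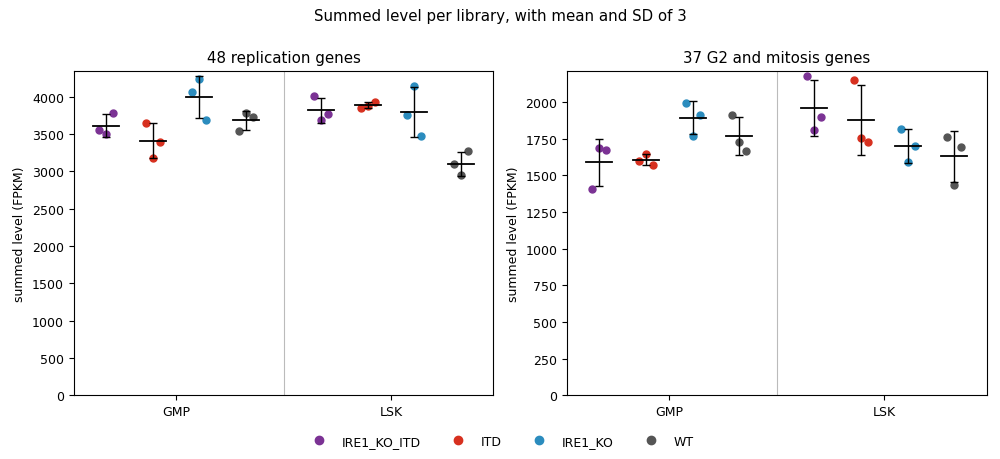
Points are single libraries, and bars the mean and SD of 3, of the summed FPKM of the 48 replication genes (left) and of 37 G2 and mitosis genes (right), in GMP and LSK of 4 genotypes. For the replication genes the WT LSK libraries, at 2948 to 3266 FPKM, are below all other LSK libraries.

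The first comparison asks how the normal populations differ. In WT mice, 19 of the 48 genes were higher in GMP than in LSK and 2 were lower, where 19.0% of the 12348 genes tested were called higher and 31.3% lower (limma on log2(FPKM + 1), Benjamini-Hochberg adjusted p under 0.05 over all genes tested). The median difference was 0.21 on the log2 scale over the 48 genes and -0.11 over all genes. The higher genes were found in most roles, with 6 of 10 origin licensing genes, 3 of 5 nucleotide genes and 3 of 6 chromatin genes, but with 0 of 6 polymerase and primase genes and 1 of 6 clamp genes. In bulk RNA of a sorted population, fewer cells in S phase and less RNA per cell in S phase cannot be told apart.

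Rrm2, the regulated subunit of ribonucleotide reductase, had 175.7, 155.7 and 151.2 FPKM in WT GMP and 79.0, 59.2 and 75.1 FPKM in WT LSK. Every GMP library was above every LSK library, and the difference was 1.18 ± 0.13 log2 units (SE; adjusted p = 4.32e-07). Cdc45, which rides with the helicase, had 71.5, 82.4 and 90.9 FPKM in WT GMP and 41.0, 39.3 and 41.4 FPKM in WT LSK (0.98 ± 0.10, adjusted p = 1.15e-07). Mcm10, the helicase activator, had 25.2, 24.9 and 24.2 FPKM in WT GMP and 12.6, 9.61 and 14.4 FPKM in WT LSK (0.98 ± 0.13, adjusted p = 3.77e-06). The groups did not overlap for either gene. Ccne2 rose by 1.12 ± 0.19, Ccne1 by 1.22 ± 0.31, the loading factor Cdc6 by 0.94 ± 0.17, Orc1 by 0.72 ± 0.16, the helicase subunit Mcm5 by 0.56 ± 0.13, the flap nuclease Fen1 by 0.51 ± 0.12 and the chromatin remodeller Hells by 0.50 ± 0.10 (adjusted p = 0.00301 or lower). The ligase Lig1 and the histone chaperone subunit Chaf1b were the 2 genes that were lower in GMP. Lig1 had 47.1, 47.95 and 41.3 FPKM in WT GMP and 57.0, 61.2 and 62.9 FPKM in WT LSK, a difference of -0.40 ± 0.09 (adjusted p = 0.00115), and Chaf1b differed by -0.40 ± 0.11 (adjusted p = 0.00504).

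Among the 55 other replication genes, 19 were higher and 8 lower in WT GMP, with the origin subunit Orc3 (0.62 ± 0.09), the histone chaperone Asf1b (0.78 ± 0.12) and cyclin A2 gene Ccna2 (0.90 ± 0.16) higher and Dctd (-0.79 ± 0.14), Pold4 (-0.69 ± 0.12) and Pole4 (-0.51 ± 0.10) lower. Of the 37 G2 and mitosis genes, 15 were higher and 1 lower, among them Cdca3 (0.46 ± 0.10), Ncapg (0.53 ± 0.13) and the survivin gene Birc5 (0.39 ± 0.10) higher and Cenpf (-0.40 ± 0.16) lower (limma adjusted p = 0.0382 or lower for these 10 genes). All 12 stem cell markers were lower in WT GMP, where they summed to 12.3 to 17.5 FPKM, against 217.7 to 300.7 FPKM in WT LSK. The late neutrophil genes summed to 42560 to 63020 FPKM in WT GMP and 4926 to 9973 FPKM in WT LSK, and the monocyte, macrophage and dendritic cell genes to 478.1 to 548.2 FPKM in WT GMP and 310.2 to 439.1 FPKM in WT LSK, with 6 of 12 higher and 2 lower. This last list includes Flt3 in every comparison, at 4.54 to 12.8 FPKM in WT GMP and 143.9 to 160.5 FPKM in WT LSK. The part of these cells in the result was not tested. The count of genes called depended on scaling: it was 15 higher and 4 lower after quantile normalization, and 31 higher and 2 lower when libraries were scaled by their median ratio, a scaling that shifted all genes by a median of 0.15 log2 units.

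The next comparison asks what differs in LSK of mice with the duplication. In ITD LSK 20 of the 48 genes rose relative to WT LSK and 1 fell, where 14.9% of the 11955 genes tested were called higher and 7.27% lower. The median difference was 0.33 log2 units over the 48 genes and 0.08 over all genes, and 43 of the 48 differences were above 0. The ITD and WT libraries did not overlap for 30 genes that were higher and 1 that was lower, against 25.8% and 13.5% of genes tested. The WT LSK libraries are shared with the comparison of the populations in WT mice.

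In origin licensing 6 of 10 genes rose. Cdc6 had 18.3, 17.8 and 17.3 FPKM in ITD LSK and 11.4, 7.60 and 11.5 FPKM in WT LSK, with no overlap (0.77 ± 0.17, adjusted p = 0.00944). Of the 6 subunits of the MCM helicase, Mcm2 (0.47 ± 0.10), Mcm4 (0.55 ± 0.12), Mcm5 (0.36 ± 0.11) and Mcm6 (0.39 ± 0.11) passed the threshold, as did Orc1 (0.47 ± 0.14; adjusted p = 0.0430 or lower for these 5). Mcm6 stood at 242.2, 288.2 and 303.5 FPKM in ITD LSK and 211.7, 191.6 and 229.6 FPKM in WT LSK. The other 4, Mcm3, Mcm7, Cdt1 and Orc6, also had differences above 0, the smallest being 0.25 for Orc6, and did not pass. All 10 genes thus lay above 0 in ITD LSK, whether or not they passed.

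In helicase activation Mcm10 and Gins2 rose, 2 of 6 genes. Mcm10 had 19.1, 22.1 and 23.4 FPKM in ITD LSK and 12.6, 9.61 and 14.4 FPKM in WT LSK (0.78 ± 0.14, adjusted p = 0.00444), and the lowest ITD library was above the highest WT library. For Cdc45 the values were 43.6, 49.7 and 43.5 FPKM in ITD LSK and 41.0, 39.3 and 41.4 FPKM in WT LSK, which did not pass. Mcm10 and Cdc45 work on the same helicase.

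Among the polymerases, Pole, the catalytic subunit of polymerase epsilon, had 14.1, 16.1 and 16.2 FPKM in ITD LSK and 8.03, 8.34 and 12.6 FPKM in WT LSK (0.65 ± 0.15, adjusted p = 0.0138). Its call ended without WT LSK replicate 2 and in a fit of these 6 libraries alone. The polymerase alpha subunit Pola2 rose by 0.38 ± 0.07 (adjusted p = 0.00620), and 4 of the 6 genes did not pass. Of the clamp and its loader only Rfc1 was called (0.34 ± 0.10, adjusted p = 0.0316). Pcna, with 330.2, 307.5 and 312.1 FPKM in ITD LSK and 291.3, 315.9 and 312.9 FPKM in WT LSK, overlapped. The single-strand binding subunit Rpa1 rose by 0.59 ± 0.17 (adjusted p = 0.0305) and Fen1 by 0.47 ± 0.11 (adjusted p = 0.0136), while Rpa2, Clspn and Lig1 did not pass. Rpa1 lost its call in 9 alternatives, among them leaving out any 1 of ITD LSK replicates 1, 2 and 3 and WT LSK replicates 1 and 2.

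The nucleotide genes gave 3 calls of 5. Rrm1, the large subunit of ribonucleotide reductase, had 136.1, 121.2 and 118.2 FPKM in ITD LSK and 85.4, 74.4 and 92.4 FPKM in WT LSK, with no overlap (0.57 ± 0.09, adjusted p = 0.00241). Rrm2 had 118.7, 108.7 and 99.8 FPKM in ITD LSK and 79.0, 59.2 and 75.1 FPKM in WT LSK (0.62 ± 0.13, adjusted p = 0.00955). Dut rose by 0.33 ± 0.10 (adjusted p = 0.0348), and the thymidine genes Tyms and Tk1 did not pass. Both subunit genes of ribonucleotide reductase were thus higher in all 3 ITD LSK libraries.

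Of the 6 chromatin genes 3 rose. Cdca7, which brings Hells to chromatin, had 201.4, 196.7 and 199.1 FPKM in ITD LSK and 130.1, 98.7 and 130.0 FPKM in WT LSK (0.74 ± 0.11, adjusted p = 0.00205). Hells itself had 30.7, 32.2 and 36.0 FPKM in ITD LSK and 20.5, 19.7 and 22.1 FPKM in WT LSK (0.64 ± 0.10, adjusted p = 0.00273). Uhrf1, which reads hemimethylated DNA behind the fork, had 75.3, 105.0 and 103.5 FPKM in ITD LSK and 58.0, 51.1 and 64.4 FPKM in WT LSK (0.69 ± 0.15, adjusted p = 0.0110). None of the 3 overlapped between groups, and the call of Uhrf1 ended without WT LSK replicate 2. Chaf1a, Chaf1b and the histone mRNA binding protein gene Slbp did not pass.

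Of the 4 E2F and cyclin E genes 1 rose and 1 fell. Ccne2 had 21.9, 18.8 and 16.8 FPKM in ITD LSK and 9.15, 6.87 and 9.07 FPKM in WT LSK, the largest difference of the 48 genes (1.11 ± 0.18, adjusted p = 0.00246). Ccne1, the other cyclin E gene, had 4.78, 4.94 and 5.46 FPKM in ITD LSK and 5.90, 4.45 and 2.11 FPKM in WT LSK and did not pass. E2f2 was the 1 gene that fell, with 2.17, 1.62 and 2.25 FPKM in ITD LSK and 3.10, 3.79 and 3.61 FPKM in WT LSK (-0.58 ± 0.14, adjusted p = 0.0158), and its call ended without ITD LSK replicate 2, without WT LSK replicate 2 or with sex as a covariate. E2f1 overlapped, with 4.94, 5.06 and 4.48 FPKM in ITD LSK and 6.21, 6.52 and 3.87 FPKM in WT LSK.

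The E2F words were found in 7 of 18 promoter windows (38.9%) of the genes that rose in ITD LSK and in 9 of 26 windows (34.6%) of those not called. Beyond the 48, 13 of 55 other replication genes were higher in ITD LSK and 1 lower, with Wdhd1 (0.83 ± 0.14), Orc2 (0.67 ± 0.13) and the helicase gene Recql4 (0.80 ± 0.15) higher and Pold4 lower (-0.52 ± 0.13). Of the 37 G2 and mitosis genes 7 were higher and 0 lower (17 with an unadjusted p under 0.05), including Aurkb (0.51 ± 0.13), Anln (0.66 ± 0.18) and Ncapg (0.52 ± 0.15; limma adjusted p = 0.0280 or lower for these 7 named genes).

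Markers of other cells moved as well. Of the stem cell markers 8 of 12 were lower in ITD LSK, where they summed to 132.2 to 180.5 FPKM, against 217.7 to 300.7 FPKM in WT LSK. Of 13 erythroid genes tested 10 were lower and 1 higher (sums of 176.4 to 290.6 FPKM in ITD LSK and 732.6 to 1452 FPKM in WT LSK), of 11 B cell genes all 11 were lower (42.6 to 111.6 FPKM in ITD LSK, with 1 listed at 0 in all 3, and 206.7 to 424.3 FPKM in WT LSK), and of 10 late neutrophil genes 9 were lower (476.7 to 2412 FPKM in ITD LSK and 4926 to 9973 FPKM in WT LSK). The monocyte, macrophage and dendritic cell genes went the other way in sum, with 484.7, 2202 and 2830 FPKM in ITD LSK and 310.2 to 439.1 FPKM in WT LSK, and 3 of 11 tested were higher and 1 lower. The largest members of that sum in ITD LSK were Cd74 (249.2 to 1769 FPKM) and H2-Aa (85.3 to 695.0 FPKM). In WT LSK these had 85.8 to 151.6 and 15.25 to 32.8 FPKM. Flt3, on the same list, had 53.2 to 58.7 FPKM in ITD LSK and 143.9 to 160.5 FPKM in WT LSK, and Csf1r overlapped. Megakaryocyte genes summed to 33.0 to 40.2 FPKM in ITD LSK and 57.3 to 92.1 FPKM in WT LSK. T and NK cell genes summed to 387.7 to 503.3 FPKM in ITD LSK and 327.3 to 341.0 FPKM in WT LSK. Most of that sum was Nkg7, with 341.7 to 458.6 FPKM in ITD LSK and 277.8 to 304.5 FPKM in WT LSK. Nkg7 was higher still in WT GMP (1109 to 1301 FPKM). The T cell genes Cd3e, Cd3d and Cd3g stayed below 1 FPKM in ITD LSK and WT LSK, so the sum does not measure T and NK cells. The part of these cells in the result was not tested. The count of 21 genes called became 10 without WT LSK replicate 2, and 12 with sex as a covariate, all of them higher and all among the 21. WT LSK replicate 2 had the lowest level of Cdc6, Mcm10, Rrm2 and Ccne2 of all libraries. It was also the lowest for Mcm4, Mcm5, Mcm6, Mcm7, Orc1, Cdt1, Rrm1, Fen1, Uhrf1, Hells and Cdca7. The same held for Rpa1, Pold1, Gins3 and Rfc1.

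**Figure D3:**
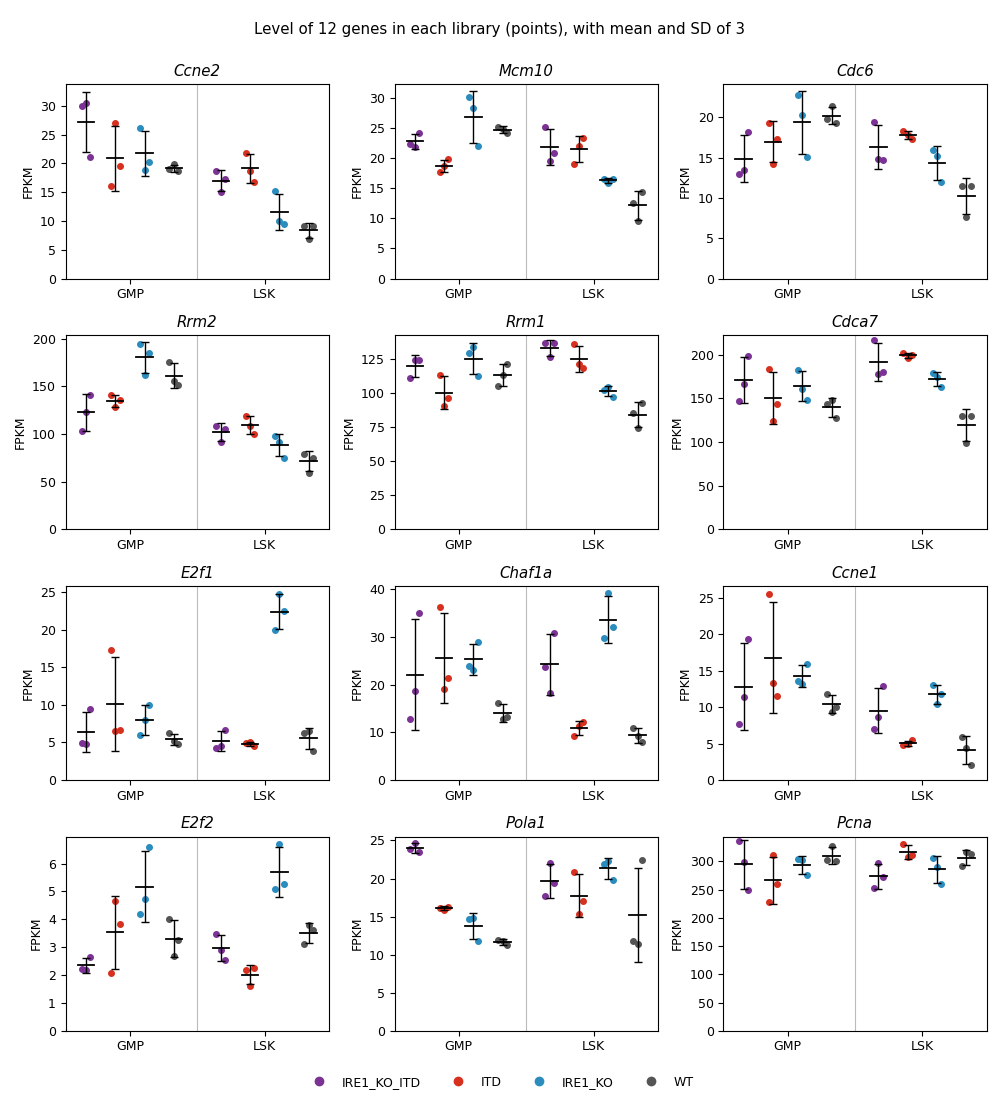
Points are FPKM of single libraries, and bars the mean and SD of 3, for 12 genes in GMP and LSK of IRE1_KO_ITD, ITD, IRE1_KO and WT mice (left to right within a population). Ccne2, Mcm10, Cdc6, Rrm2, Rrm1 and Cdca7 are lowest in WT LSK, E2f1 is above 20.0 FPKM or at it in IRE1_KO LSK alone, and Pola1 is highest in IRE1_KO_ITD GMP.

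The duplication was compared in GMP as well. ITD GMP had 1 gene higher and 2 lower than WT GMP, where 7.37% of the 11249 genes tested were called higher and 3.32% lower, and the median difference was -0.05 log2 units over the 48 genes and 0.07 over all genes. Pola1, the catalytic subunit of polymerase alpha, had 16.2, 15.8 and 16.3 FPKM in ITD GMP and 11.97, 11.8 and 11.3 FPKM in WT GMP (0.43 ± 0.09, adjusted p = 0.0173). The gene lies on the X chromosome, and all 3 ITD GMP libraries were female, against 1 of 3 in WT GMP. Cdc45 had 58.1, 61.2 and 66.0 FPKM in ITD GMP and 71.5, 82.4 and 90.9 FPKM in WT GMP (-0.39 ± 0.10, adjusted p = 0.0269). Gins4, a GINS subunit, had 48.9, 46.2 and 44.4 FPKM in ITD GMP and 54.3, 58.5 and 58.4 FPKM in WT GMP (-0.29 ± 0.08, adjusted p = 0.0485). All 3 calls ended with sex as a covariate, in a fit of the 6 libraries alone, or without WT GMP replicate 2 or 3. Without ITD GMP replicate 1 or 3, 1 call was left. Under median-ratio scaling 1 gene was higher and 11 lower, and after quantile normalization 0 and 3.

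Of the other replication genes 2 were higher and 2 lower in ITD GMP, with Samhd1 (0.45 ± 0.10) and Pold4 (0.43 ± 0.11) higher and Orc3 (-0.47 ± 0.10) and Pole3 (-0.34 ± 0.09) lower. Of the G2 and mitosis genes Cdca3 (-0.36 ± 0.09) and Birc5 (-0.39 ± 0.10) were lower (limma adjusted p = 0.0434 or lower for these 6). In these libraries the late neutrophil genes summed to 2424, 94580 and 37840 FPKM in ITD GMP replicates 1, 2 and 3, against 42560 to 63020 FPKM in WT GMP. Erythroid genes summed to 43.1 to 144.5 FPKM in ITD GMP and 159.9 to 636.4 FPKM in WT GMP, with 9 of 13 lower. B cell genes summed to 51.9 to 57.7 FPKM in ITD GMP and 99.8 to 344.2 FPKM in WT GMP, with 8 of 11 lower. The monocyte, macrophage and dendritic cell genes were higher in sum, at 1610 to 2509 FPKM in ITD GMP and 478.1 to 548.2 FPKM in WT GMP, with 5 of 10 tested higher and 0 lower (limma; 8 with an unadjusted p under 0.05). Of the GMP markers themselves 5 of 7 were lower in ITD GMP, and of the T and NK cell genes 1 of 3 tested. Megakaryocyte genes summed to 6.17 to 20.1 FPKM in ITD GMP and 39.96 to 77.6 FPKM in WT GMP. Basophil and mast cell genes summed to 133.3 to 224.5 FPKM in ITD GMP and 394.2 to 577.3 FPKM in WT GMP. The part of these cells in the result was not tested.

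Whether the effect of the duplication differs between the populations was tested directly, as the effect in GMP minus the effect in LSK in 1 fit of all 24 libraries. The difference was called for 18 of the 48 genes, all of them below 0, so that the GMP effect lay below the LSK effect, where 6.45% of the 12348 genes tested were called above 0 and 7.10% below 0. Its median was -0.39 log2 units over the 48 genes and 0.00 over all genes. Mcm10 led, with an ITD effect of -0.38 in GMP and 0.78 in LSK and a difference of -1.17 ± 0.18 (adjusted p = 0.00105). Rrm1 differed by -0.75 ± 0.14 (adjusted p = 0.00287), Rrm2 by -0.87 ± 0.18 (0.00593), Cdc6 by -1.02 ± 0.25 (0.0129) and Cdc45 by -0.55 ± 0.14 (0.0145). In Rrm2, for instance, the libraries had 140.9, 128.6 and 135.2 FPKM in ITD GMP and 175.7, 155.7 and 151.2 FPKM in WT GMP, while ITD LSK was above WT LSK.

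By role, the difference was called for 6 of 10 origin licensing genes (Orc1, Orc6, Cdc6, Mcm4, Mcm5 and Mcm7), 2 of 6 helicase activation genes, 0 of 6 polymerase and primase genes, 1 of 6 clamp genes (Rfc4), Fen1, both Rpa1 and Rpa2, both ribonucleotide reductase genes, Uhrf1, Hells and Cdca7, and Ccne2. E2f1, E2f2 and Ccne1 had differences above 0 that did not pass. Of the other lists, 2 of 55 other replication genes were called above 0 and 11 below, and 14 of 37 G2 and mitosis genes were called below 0 and 0 above (limma; 20 with an unadjusted p under 0.05). Of the stem cell markers 8 of 12 were called above 0, and their part in the result was not tested. The count became 5 without WT LSK replicate 2, 7 without WT GMP replicate 2 or 3, 8 without ITD GMP replicate 2, 9 without ITD LSK replicate 3, and 11 without ITD GMP replicate 3 or ITD LSK replicate 2. No gene was called above 0 in any of these fits, and 1 was without ITD GMP replicate 1.

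**Figure D4:**
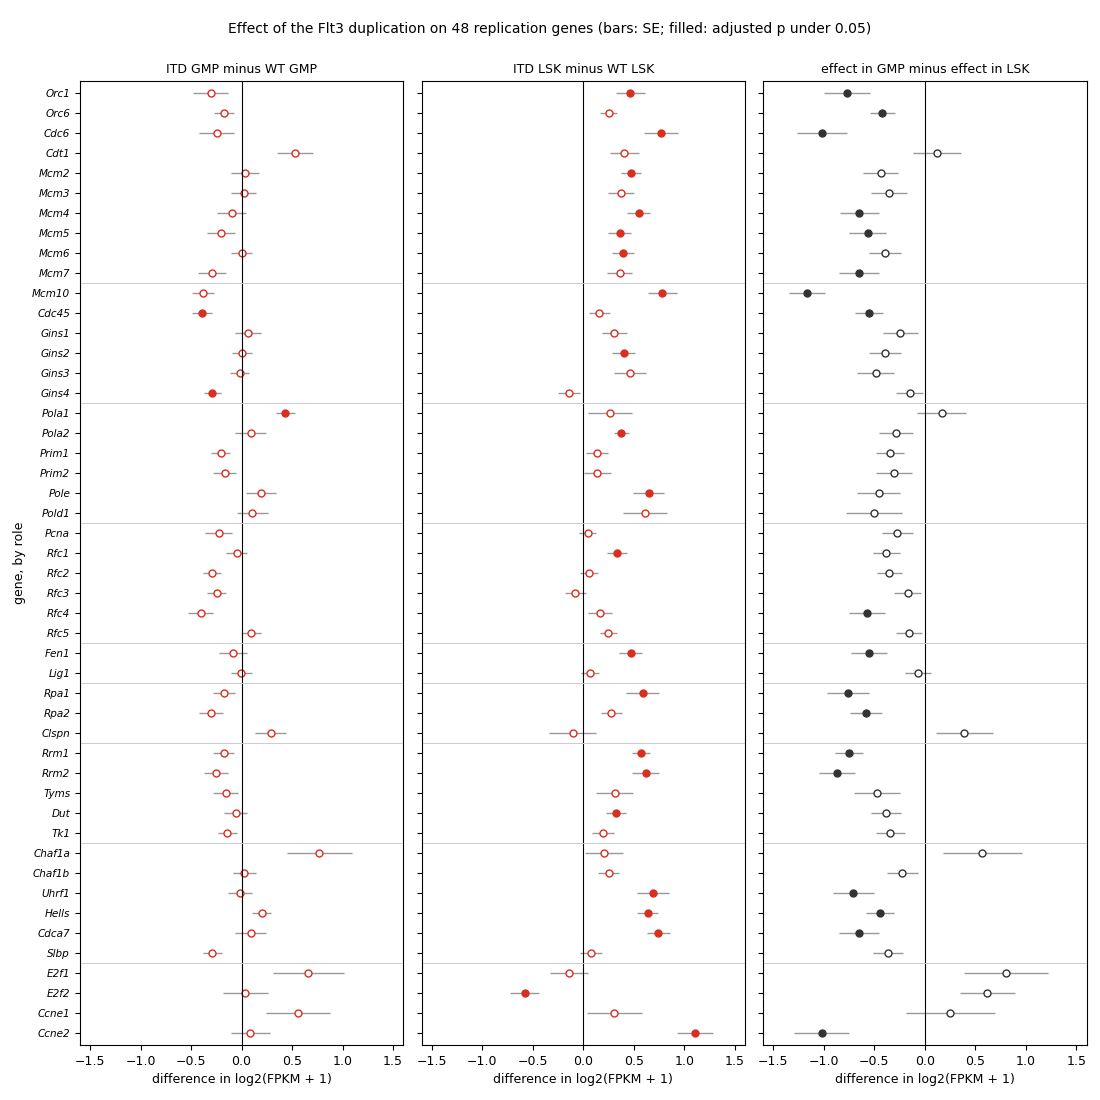
Points are the difference in log2(FPKM + 1) for each of the 48 genes (grouped by role) between ITD and WT in GMP (left), in LSK (middle), and the GMP effect minus the LSK effect (right); bars are the SE and filled points have an adjusted p under 0.05. In LSK 43 of 48 points lie above 0, in GMP 20 of 48, and the 18 filled points on the right are all below 0.

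The 2 populations were also compared within each mutant genotype. In ITD mice 5 of the 48 genes were higher and 14 lower in GMP than in LSK, where 13.7% of genes tested were called higher and 26.8% lower. The higher ones were Ccne1 (1.47 ± 0.31), Chaf1a (1.11 ± 0.28), E2f1 (0.80 ± 0.29), E2f2 (0.55 ± 0.19) and Cdc45 (0.43 ± 0.10). The largest of the lower ones were Chaf1b (-0.62 ± 0.11), Pole (-0.60 ± 0.15), Pola2 (-0.51 ± 0.12), Lig1 (-0.47 ± 0.09), the clamp loader gene Rfc2 (-0.42 ± 0.09), Cdca7 (-0.42 ± 0.14), Rpa2 (-0.42 ± 0.11), Rpa1 (-0.39 ± 0.15), Rrm1 (-0.32 ± 0.10) and the primase gene Prim1 (-0.31 ± 0.10; adjusted p = 0.0414 or lower for these 15). Rrm1 had 113.6, 90.8 and 96.7 FPKM in ITD GMP and 136.1, 121.2 and 118.2 FPKM in ITD LSK, the opposite order to that in WT mice. The E2f1 difference was 0.38 without ITD GMP replicate 1 (adjusted p = 0.232), and its call also ended without any 1 of the 3 ITD LSK libraries. The count of 19 became 12 without ITD GMP replicate 2 and 11 without ITD LSK replicate 1. The split of the calls depended on scaling: 6 higher and 10 lower after quantile normalization, and 8 higher and 6 lower under median-ratio scaling, which shifted all genes by a median of 0.16. A fit of the 6 libraries alone left 3 higher and 5 lower.

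Other genes of replication in the ITD mice gave 10 of 55 higher and 11 lower in GMP: the retinoblastoma gene Rb1 (0.69 ± 0.14), Asf1a (0.82 ± 0.17) and Ccna2 (0.68 ± 0.16) were higher and Dctd (-1.07 ± 0.14), Pole3 (-0.41 ± 0.08) and Pole4 (-0.48 ± 0.10) lower. Of the G2 and mitosis genes Foxm1 (0.67 ± 0.18) was higher and 7 were lower, among them Ckap2 (-0.48 ± 0.13), Prc1 (-0.42 ± 0.13) and Cdc25c (-0.52 ± 0.16; limma adjusted p = 0.0140 or lower for these 10). Stem cell markers summed to 15.2 to 21.6 FPKM in ITD GMP and 132.2 to 180.5 FPKM in ITD LSK (11 of 12 lower). Late neutrophil genes summed to 2424 to 94580 FPKM in ITD GMP and 476.7 to 2412 FPKM in ITD LSK (8 of 10 higher). Monocyte, macrophage and dendritic cell genes summed to 1610 to 2509 FPKM in ITD GMP and 484.7 to 2830 FPKM in ITD LSK (7 of 12 higher and 2 lower). Their part in the result was not tested.

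In IRE1_KO mice 11 genes were higher in GMP and 5 lower, where 12.2% of genes tested were called higher and 38.5% lower. Rrm2 had 193.8, 161.9 and 185.1 FPKM in IRE1_KO GMP and 97.7, 92.0 and 74.9 FPKM in IRE1_KO LSK (1.03 ± 0.13, adjusted p = 2.16e-06), and Cdc45 had 82.8, 86.8 and 78.3 FPKM in IRE1_KO GMP and 49.7, 40.8 and 36.7 FPKM in IRE1_KO LSK (0.96 ± 0.10, adjusted p = 1.63e-07). Also higher were Ccne2 (0.87 ± 0.19), Mcm10 (0.68 ± 0.13), Orc1 (0.65 ± 0.16), the thymidine kinase gene Tk1 (0.60 ± 0.10), Hells (0.49 ± 0.10), Mcm5 (0.41 ± 0.13), Rfc4 (0.31 ± 0.13) and Rrm1 (0.30 ± 0.10). E2f1 went the other way by -1.40 ± 0.29, with Pola1 (-0.60 ± 0.17), Chaf1b (-0.46 ± 0.11), Rfc2 (-0.30 ± 0.09) and Rfc5 (-0.28 ± 0.09; adjusted p = 0.0470 or lower for all). The LSK side of this comparison is the 3 libraries with the 1ng tag, so the population and the tag cannot be told apart. Scaling moved the split to 17 higher and 3 lower after quantile normalization and to 26 higher and 1 lower under median-ratio scaling, which shifted all genes by a median of 0.245.

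Also in the IRE1_KO mice, 10 of 55 other replication genes were higher in GMP and 14 lower, with Asf1b (0.76 ± 0.12), the nuclease gene Dna2 (0.98 ± 0.16) and E2f8 (0.94 ± 0.17) higher and Mcm9 (-1.32 ± 0.17), E2f5 (-1.42 ± 0.21) and Dctd (-0.88 ± 0.14) lower. Of the G2 and mitosis genes 9 were higher and 0 lower (limma; 12 with an unadjusted p under 0.05), led by Cdca3 (0.55 ± 0.10), Aurka (0.58 ± 0.13) and Ncapg (0.53 ± 0.13; limma adjusted p = 0.00214 or lower for these 9). Stem cell markers summed to 11.7 to 19.8 FPKM in IRE1_KO GMP and 223.8 to 297.6 FPKM in IRE1_KO LSK (12 of 12 lower). Late neutrophil genes summed to 17610 to 85020 FPKM in IRE1_KO GMP and 4695 to 11720 FPKM in IRE1_KO LSK (4 of 10 higher). Monocyte, macrophage and dendritic cell genes summed to 485.4 to 626.0 FPKM in IRE1_KO GMP and 459.6 to 577.1 FPKM in IRE1_KO LSK (6 of 12 higher and 3 lower). What these cells add to the result was not tested.

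In IRE1_KO_ITD mice 5 genes were higher in GMP and 9 lower, where 14.2% of genes tested were called higher and 26.5% lower. Hells had 43.2, 44.2 and 41.7 FPKM in IRE1_KO_ITD GMP and 32.1, 28.4 and 31.2 FPKM in IRE1_KO_ITD LSK (0.48 ± 0.10, adjusted p = 0.000641). Ccne2 (0.64 ± 0.19), Gins1 (0.49 ± 0.12), Cdc45 (0.46 ± 0.10) and Orc6 (0.33 ± 0.09) were the other higher genes. Uhrf1 had 71.9, 60.8 and 77.8 FPKM in IRE1_KO_ITD GMP and 131.2, 101.7 and 105.8 FPKM in IRE1_KO_ITD LSK (-0.68 ± 0.14, adjusted p = 0.000866). The polymerase delta gene Pold1 (-0.72 ± 0.19), Pole (-0.62 ± 0.15), Chaf1b (-0.52 ± 0.11), Lig1 (-0.42 ± 0.09), Rpa1 (-0.39 ± 0.15), Rfc5 (-0.36 ± 0.09), Rfc2 (-0.32 ± 0.09) and Pola2 (-0.31 ± 0.12) were also lower (adjusted p = 0.0451 or lower). Under median-ratio scaling the split was 9 higher and 6 lower, and after quantile normalization 5 and 16, and the scalings shifted all genes by a median of 0.15 and 0.18. Chaf1b was lower in GMP in each of the 4 genotypes.

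Among other replication genes of the IRE1_KO_ITD mice 7 of 55 were higher in GMP and 10 lower: Rb1 (0.51 ± 0.14), Rpa3 (0.67 ± 0.18) and the histone chaperone Nasp (0.39 ± 0.12) were higher and Dctd (-0.80 ± 0.14), E2f7 (-0.79 ± 0.14) and Dck (-0.60 ± 0.11) lower. Of 37 G2 and mitosis genes 12 were lower and 0 higher (limma; 16 with an unadjusted p under 0.05), with Prc1 (-0.65 ± 0.13), Cdc25c (-0.72 ± 0.16) and Cenpf (-0.70 ± 0.16; limma adjusted p = 0.0121 or lower for these 9). Stem cell markers summed to 20.96 to 31.6 FPKM in IRE1_KO_ITD GMP and 188.5 to 228.3 FPKM in IRE1_KO_ITD LSK (10 of 12 lower). Late neutrophil genes summed to 1495 to 15100 FPKM in IRE1_KO_ITD GMP and 114.7 to 395.0 FPKM in IRE1_KO_ITD LSK (7 of 10 higher). Monocyte, macrophage and dendritic cell genes summed to 573.4 to 1032 FPKM in IRE1_KO_ITD GMP and 159.4 to 232.5 FPKM in IRE1_KO_ITD LSK (7 of 12 higher and 1 lower). What these cells add to the result was not tested.

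The Ern1 deletion without the duplication was compared with WT in LSK. In IRE1_KO LSK 15 of the 48 genes were higher than in WT LSK and 0 lower (limma; 26 with an unadjusted p under 0.05), where 21.0% of the 11955 genes tested were called higher and 2.72% lower. The median difference was 0.27 log2 units over the 48 genes and 0.14 over all genes. E2f1, the E2F factor best known for starting S phase, had 20.0, 24.8 and 22.5 FPKM in IRE1_KO LSK and 6.21, 6.52 and 3.87 FPKM in WT LSK (1.86 ± 0.19, adjusted p = 3.75e-05). Chaf1a had 29.8, 39.2 and 32.1 FPKM in IRE1_KO LSK and 10.98, 9.26 and 7.95 FPKM in WT LSK (1.74 ± 0.19, adjusted p = 5.81e-05). Ccne1 had 13.04, 10.4 and 11.9 FPKM in IRE1_KO LSK and 5.90, 4.45 and 2.11 FPKM in WT LSK (1.38 ± 0.27, adjusted p = 0.00319). For these 3 genes every IRE1_KO library was well above every WT library. The 3 genes were also high together in ITD GMP replicate 1, a library with neither the Ern1 deletion nor the 1ng tag. The highest ITD GMP values were 17.4 FPKM for E2f1 (median of 3, 6.61), 36.3 FPKM for Chaf1a (median 21.3) and 25.5 FPKM for Ccne1 (median 13.3). The reason was not tested.

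The other changes were smaller. Of origin licensing 6 of 10 genes were higher, among them Mcm6 (0.56 ± 0.11) and Mcm4 (0.52 ± 0.12), and Cdca7 (0.53 ± 0.11), Uhrf1 (0.67 ± 0.15), Rpa1 (0.71 ± 0.17), Pold1 (0.80 ± 0.21) and E2f2 (0.57 ± 0.14) were higher as well (adjusted p = 0.0196 or lower for these 7). Mcm6 had 280.0, 350.1 and 308.9 FPKM in IRE1_KO LSK and 211.7, 191.6 and 229.6 FPKM in WT LSK. None of the 6 helicase activation genes and none of the 5 nucleotide genes was called, Rrm1 having 101.9, 104.6 and 97.3 FPKM in IRE1_KO LSK and 85.4, 74.4 and 92.4 FPKM in WT LSK. Ccne2, between 9.52 and 15.2 FPKM in IRE1_KO LSK and 9.15, 6.87 and 9.07 FPKM in WT LSK, did not pass either.

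These IRE1_KO LSK libraries are the 3 with the 1ng tag, so the tag and the genotype cannot be told apart. They also stand apart in the share of summed FPKM that the short gene entry Mir6236 took, which was 0.904%, 0.175% and 0.901% in the IRE1_KO LSK libraries and 2.72% to 6.61% in the other 21 libraries, and its part in the result was not tested. The transcripts of E2f1 (58.3% GC), Chaf1a (55.2%), E2f2 (56.6%) and Pold1 (60.7%) are richer in GC than the median of the 48 (49.4%). After a correction of each library for GC content and length, 5 genes were higher and 1 lower: E2f1 (1.605 ± 0.18), Chaf1a (1.48 ± 0.18), Ccne1 (1.25 ± 0.28), Uhrf1 (0.41 ± 0.13) and Cdca7 (0.35 ± 0.09) were higher and Orc6 lower (-0.23 ± 0.07; adjusted p = 0.0485 or lower). After the correction Pold1 (0.39), E2f2 (0.27) and Mcm6 (0.27) were no longer called. That correction shifted all genes by a median of -0.21 log2 units, and quantile normalization and median-ratio scaling left 7 genes higher and 1 lower each. The count of 15 became 8 without IRE1_KO LSK replicate 2 and 9 without WT LSK replicate 2.

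**Figure D5:**
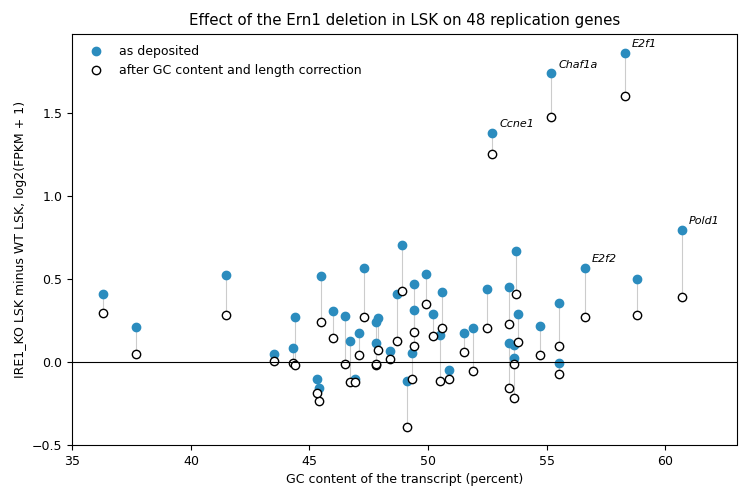
Each pair of points is 1 of the 48 genes, placed by the GC content of its transcript (x axis, percent), with the difference IRE1_KO LSK minus WT LSK in log2(FPKM + 1) as deposited (filled) and after the GC content and length correction (open). E2f1, Chaf1a and Ccne1 stand apart from the others before (1.86, 1.74 and 1.38) and after it (1.605, 1.48 and 1.25), while most other points drop towards 0. The correction shifted all genes tested by a median of -0.21 log2 units, so the drop is not particular to GC-rich genes.

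Among the other replication genes 16 of 55 were higher in IRE1_KO LSK and 0 lower (limma; 22 with an unadjusted p under 0.05), with the largest calls in the checkpoint gene Topbp1 (1.51 ± 0.11), Mcmbp (1.86 ± 0.17) and Donson (1.89 ± 0.17), and 1 of 37 G2 and mitosis genes, Foxm1 (0.72 ± 0.12), was higher (limma adjusted p = 0.00118 or lower for these 4). In ITD GMP, without the deletion, the highest values were 35.9 FPKM for Topbp1 (median of 3, 21.9), 39.7 FPKM for Mcmbp (median 13.4) and 9.16 FPKM for Donson (median 3.58). The stem cell, erythroid, B cell and late neutrophil lists gave 0 calls between IRE1_KO LSK and WT LSK in limma (0, 0, 1 and 1 genes with an unadjusted p under 0.05), and stem cell markers summed to 223.8 to 297.6 FPKM in IRE1_KO LSK and 217.7 to 300.7 FPKM in WT LSK. Of the megakaryocyte genes, Gp5 had 2.37 to 5.82 FPKM in IRE1_KO LSK and 0.216 to 0.914 FPKM in WT LSK. Gp1bb had 0.517 to 1.72 FPKM in IRE1_KO LSK and 0.044 to 0.155 FPKM in WT LSK. The other megakaryocyte genes overlapped, as did the sums of the list (53.4 to 96.5 FPKM in IRE1_KO LSK and 57.3 to 92.1 FPKM in WT LSK). The part of these cells in the result was not tested. Of 11 monocyte, macrophage and dendritic cell genes tested 1 was higher, with sums of 459.6 to 577.1 FPKM in IRE1_KO LSK and 310.2 to 439.1 FPKM in WT LSK, and their part in the result was not tested.

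In GMP the deletion of Ern1 gave no call among the 48 genes against WT (limma; 9 with an unadjusted p under 0.05), where 0.0267% of the 11249 genes tested were called higher and 0.507% lower. The median difference was 0.15 log2 units over the 48 genes and 0.08 over all genes. The 3 genes with the smallest p were Uhrf1, Pold1 and Pole. Uhrf1 had 100.3, 112.9 and 95.7 FPKM in IRE1_KO GMP and 70.4, 85.5 and 76.5 FPKM in WT GMP, Pold1 65.7, 73.8 and 64.7 FPKM in IRE1_KO GMP and 43.1, 53.2 and 49.8 FPKM in WT GMP, and Pole 11.7, 13.4 and 9.85 FPKM in IRE1_KO GMP and 8.59, 9.04 and 7.87 FPKM in WT GMP. These 3 genes did not pass the threshold. They were picked by p, so the distance between their libraries is no separate support. E2f1 had 6.02, 8.01 and 9.96 FPKM in IRE1_KO GMP and 6.24, 5.25 and 4.84 FPKM in WT GMP, which overlap. The other replication genes and the G2 and mitosis genes gave 0 calls (limma; 11 of 55 and 5 of 37 with an unadjusted p under 0.05), and so did each list of markers of other cell types (limma; at most 1 gene a list with an unadjusted p under 0.05).

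The Ern1 deletion was next compared among mice with the duplication. In IRE1_KO_ITD LSK 1 gene was higher and 2 lower than in ITD LSK, where 13.3% of the 11955 genes tested were called higher and 6.96% lower. Chaf1a had 23.6, 18.3 and 30.9 FPKM in IRE1_KO_ITD LSK and 9.34, 11.3 and 12.2 FPKM in ITD LSK (1.06 ± 0.19, adjusted p = 0.00415). Gins1, a GINS subunit, had 29.6, 27.8 and 30.7 FPKM in IRE1_KO_ITD LSK and 40.1, 45.1 and 44.7 FPKM in ITD LSK (-0.54 ± 0.12, adjusted p = 0.0124). Orc6 had 39.5, 42.7 and 37.7 FPKM in IRE1_KO_ITD LSK and 53.3, 49.2 and 49.98 FPKM in ITD LSK (-0.34 ± 0.09, adjusted p = 0.0196). The call of Orc6 ended without IRE1_KO_ITD LSK replicate 1 or 3 or ITD LSK replicate 3, and that of Gins1 with the GC content and length correction. Scaling gave 2 higher and 2 lower by quantile normalization and 1 higher and 4 lower under median-ratio scaling. E2f1 had 4.27, 4.55 and 6.73 FPKM in IRE1_KO_ITD LSK and 4.94, 5.06 and 4.48 FPKM in ITD LSK, which overlap. It was thus not at the level of IRE1_KO LSK. The 3 IRE1_KO LSK libraries alone carry the 1ng tag, so the duplication and the tag cannot be told apart for this difference.

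Other replication genes gave 8 higher and 2 lower of 55 in that comparison, with Topbp1 (0.74 ± 0.11), E2f6 (0.94 ± 0.17) and Ccna2 (0.74 ± 0.14) higher and Samhd1 (-0.70 ± 0.12) and Dctpp1 (-0.40 ± 0.10) lower. The G2 and mitosis genes Foxm1 (0.83 ± 0.12) and Mki67 (0.46 ± 0.14) were higher (limma adjusted p = 0.0374 or lower for these 7). Monocyte and dendritic cell genes summed to 159.4 to 232.5 FPKM in IRE1_KO_ITD LSK and 484.7 to 2830 FPKM in ITD LSK, with 9 of 11 tested lower and 1 higher. Late neutrophil genes summed to 114.7 to 395.0 FPKM in IRE1_KO_ITD LSK and 476.7 to 2412 FPKM in ITD LSK (5 of 10 lower). B cell genes summed to 30.9 to 37.01 FPKM in IRE1_KO_ITD LSK and 42.6 to 111.6 FPKM in ITD LSK (2 of 11 lower). Megakaryocyte genes summed to 48.4 to 55.8 FPKM in IRE1_KO_ITD LSK and 33.0 to 40.2 FPKM in ITD LSK. Stem cell markers were higher in sum, at 188.5 to 228.3 FPKM in IRE1_KO_ITD LSK and 132.2 to 180.5 FPKM in ITD LSK (3 of 12 higher), and the part of all these cells was not tested.

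Adding the duplication to the deletion gave 5 genes higher and 3 lower in IRE1_KO_ITD LSK than in IRE1_KO LSK, where 11.7% of genes tested were called higher and 19.6% lower. E2f1, at 4.27, 4.55 and 6.73 FPKM in IRE1_KO_ITD LSK and 20.0, 24.8 and 22.5 FPKM in IRE1_KO LSK, had the largest difference (-1.94 ± 0.19, adjusted p = 4.75e-05). E2f2 (-0.76 ± 0.14) and the clamp loader gene Rfc3 (-0.45 ± 0.10) were lower too. Pole (0.63 ± 0.15), Orc1 (0.55 ± 0.14), Ccne2 (0.54 ± 0.18), Rrm1 (0.39 ± 0.09) and Hells (0.33 ± 0.10) were higher (adjusted p = 0.0402 or lower for these 7). Rrm1 had 136.8, 126.6 and 136.8 FPKM in IRE1_KO_ITD LSK and 101.9, 104.6 and 97.3 FPKM in IRE1_KO LSK, while for Ccne2 the groups overlapped. All 3 IRE1_KO LSK libraries carry the 1ng tag and the low share of Mir6236, and the tag cannot be told apart from the genotype here, and quantile normalization gave 13 higher and 3 lower. Without IRE1_KO_ITD LSK replicate 1 the split was 2 higher and 3 lower.

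Of the other replication genes in that comparison 10 were higher and 13 lower, with Ticrr (0.77 ± 0.17), E2f7 (0.54 ± 0.13) and Atad5 (0.49 ± 0.13) higher and Mcmbp (-1.35 ± 0.17), E2f5 (-1.25 ± 0.18) and Mcm9 (-0.89 ± 0.13) lower. Of the G2 and mitosis genes 7 were higher and 0 lower (limma; 17 with an unadjusted p under 0.05), among them the proliferation marker gene Mki67 (0.61 ± 0.14), Kif2c (0.43 ± 0.13) and Anln (0.57 ± 0.18; limma adjusted p = 0.0372 or lower for these 9). Erythroid genes summed to 244.4 to 321.7 FPKM in IRE1_KO_ITD LSK and 1145 to 2031 FPKM in IRE1_KO LSK, and late neutrophil genes to 114.7 to 395.0 FPKM in IRE1_KO_ITD LSK and 4695 to 11720 FPKM in IRE1_KO LSK, with 12 of 13 and 10 of 10 lower. B cell genes summed to 30.9 to 37.01 FPKM in IRE1_KO_ITD LSK and 293.1 to 366.2 FPKM in IRE1_KO LSK (11 of 11 lower). Monocyte, macrophage and dendritic cell genes summed to 159.4 to 232.5 FPKM in IRE1_KO_ITD LSK and 459.6 to 577.1 FPKM in IRE1_KO LSK (5 of 11 lower). Stem cell markers, of which 5 of 12 were lower, summed to 188.5 to 228.3 FPKM in IRE1_KO_ITD LSK and 223.8 to 297.6 FPKM in IRE1_KO LSK. The part of these cells in the result was not tested.

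Whether the 2 alleles act independently in LSK was tested as the ITD effect with the deletion minus the ITD effect without it. The difference was called for 1 of the 48 genes, E2f1 (-1.80 ± 0.26, adjusted p = 0.00595), where 1.36% of the 11955 genes tested were called above 0 and 5.58% below 0. Its median was -0.32 log2 units over the 48 genes and -0.14 over all genes. After E2f1, the smallest p were those of Cdca7 (-0.59), Gins2 (-0.45), Fen1 (-0.42) and Rfc3 (-0.38), which did not pass. Of the other replication genes 7 of 55 were called below 0 and 0 above, and of the G2 and mitosis genes 0 of 37 (limma; 0 with an unadjusted p under 0.05). Of 11 monocyte, macrophage and dendritic cell genes 4 were called below 0, and their part in the result was not tested. This test uses the libraries with the 1ng tag, and the count became 3 without IRE1_KO LSK replicate 3 and 2 without IRE1_KO_ITD LSK replicate 1, WT LSK replicate 1 or ITD LSK replicate 1.

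In GMP the same test gave 0 calls among the 48 genes and 0 of 11249 genes tested (limma; 7 of the 48 with an unadjusted p under 0.05), so that 0% of genes were called. The 5 genes with the smallest p were Uhrf1 (-0.53 ± 0.17), E2f2 (-0.90 ± 0.32), Gins3 (-0.37 ± 0.14), Pold1 (-0.57 ± 0.21) and Pola1 (0.33 ± 0.13), all with a limma adjusted p of 0.289 or more.

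IRE1_KO_ITD GMP differed from ITD GMP in 1 gene, where 0.916% of the 11249 genes tested were called higher and 0.916% lower. Pola1 had 23.9, 24.7 and 23.5 FPKM in IRE1_KO_ITD GMP and 16.2, 15.8 and 16.3 FPKM in ITD GMP (0.55 ± 0.09, adjusted p = 0.0204). This gene is on the X chromosome, and 1 of 3 IRE1_KO_ITD GMP libraries was female, against all 3 of ITD GMP. The call of Pola1 ended with the replicate number as a block (limma adjusted p = 0.0522), with sex as a covariate, and when the 6 libraries were fitted alone. It also ended without any 1 of IRE1_KO_ITD GMP replicates 1 or 2 or ITD GMP replicates 2 or 3. Hells (43.2, 44.2 and 41.7 FPKM in IRE1_KO_ITD GMP and 33.9, 35.3 and 33.7 FPKM in ITD GMP) and Pole (11.6, 12.04 and 16.2 FPKM in IRE1_KO_ITD GMP and 10.4, 8.67 and 10.54 FPKM in ITD GMP) had the next smallest p and did not pass. Of the other replication genes Samhd1 was lower (-0.48 ± 0.10, limma adjusted p = 0.0466). The monocyte, macrophage and dendritic cell genes summed to 573.4 to 1032 FPKM in IRE1_KO_ITD GMP and 1610 to 2509 FPKM in ITD GMP, with 2 of 10 tested lower, and of 3 T and NK cell genes 1 was higher. Late neutrophil genes, with 0 of 10 called and 0 at an unadjusted p under 0.05 in limma, summed to 1495 to 15100 FPKM in IRE1_KO_ITD GMP and 2424 to 94580 FPKM in ITD GMP, and the part of these cells in the result was not tested.

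Relative to IRE1_KO GMP, IRE1_KO_ITD GMP had 1 gene higher and 8 lower, where 8.47% of the 11249 genes tested were called higher and 4.50% lower. The median difference was -0.12 log2 units over the 48 genes and 0.08 over all genes. Pola1 again was the higher gene, with 23.9, 24.7 and 23.5 FPKM in IRE1_KO_ITD GMP and 14.7, 14.8 and 11.9 FPKM in IRE1_KO GMP (0.77 ± 0.09, adjusted p = 0.000811). It held this call under every alternative run. Rrm2 had 103.3, 123.0 and 141.3 FPKM in IRE1_KO_ITD GMP and 193.8, 161.9 and 185.1 FPKM in IRE1_KO GMP (-0.56 ± 0.12, adjusted p = 0.0127). Uhrf1 had 71.9, 60.8 and 77.8 FPKM in IRE1_KO_ITD GMP and 100.3, 112.9 and 95.7 FPKM in IRE1_KO GMP (-0.55 ± 0.12, adjusted p = 0.0148). For both genes the groups did not overlap.

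Tk1 fell by 0.47 on the log2 scale, Cdc45 by 0.41, Gins3 by 0.39, Rfc3 by 0.37, Slbp by 0.32 and E2f2 by 0.86 in IRE1_KO_ITD GMP relative to IRE1_KO GMP (adjusted p = 0.0442 or lower). The count of 9 became 3 without IRE1_KO_ITD GMP replicate 2, and 5 without IRE1_KO_ITD GMP replicate 1, IRE1_KO GMP replicate 1 or IRE1_KO GMP replicate 2. Of the other replication genes Pold4 (0.46 ± 0.11) was higher and Asf1b (-0.42 ± 0.11) and the kinase gene Cdk2 (-0.26 ± 0.07) lower. Of 37 G2 and mitosis genes 4 were lower and 0 higher (limma; 9 with an unadjusted p under 0.05), among them Aurka (-0.62 ± 0.12), Cdca3 (-0.43 ± 0.09) and Birc5 (-0.41 ± 0.10; limma adjusted p = 0.0404 or lower for these 6). Late neutrophil genes summed to 1495 to 15100 FPKM in IRE1_KO_ITD GMP and 17610 to 85020 FPKM in IRE1_KO GMP, with 2 of 10 lower. Erythroid genes summed to 38.4 to 86.4 FPKM in IRE1_KO_ITD GMP and 378.1 to 800.6 FPKM in IRE1_KO GMP (12 of 13 lower). B cell genes summed to 43.8 to 45.9 FPKM in IRE1_KO_ITD GMP and 110.3 to 407.1 FPKM in IRE1_KO GMP (11 of 11 lower). Megakaryocyte genes summed to 7.24 to 10.9 FPKM in IRE1_KO_ITD GMP and 24.4 to 129.4 FPKM in IRE1_KO GMP. Basophil and mast cell genes summed to 181.5 to 280.4 FPKM in IRE1_KO_ITD GMP and 344.8 to 745.5 FPKM in IRE1_KO GMP. The monocyte, macrophage and dendritic cell genes summed to 573.4 to 1032 FPKM in IRE1_KO_ITD GMP and 485.4 to 626.0 FPKM in IRE1_KO GMP, which overlap, with 3 of 10 tested higher. Of 4 stem cell markers tested 2 were higher, and the part of these cells in the result was not tested.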

How the data were processed

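RNA of sorted LSK and GMP was sequenced in 24 libraries, 3 for each of 8 groups assigned from the sample labels. The deposited values are FPKM per gene symbol, made by the authors with STAR and Cufflinks on mm10 per the submitters' processing notes, and the sources used here state no versions, annotation or strand setting. The labels' protocols and the series text name different library kits, and this was not settled. FPKM are not counts, so limma 3.58.1 (R 4.3.3, moderated test with a mean trend) was run on log2(FPKM + 1). The fits were 1 over 12 LSK libraries, 1 over 12 GMP libraries, and 1 over all 24 for comparisons across populations. Genes below 1 FPKM in all but 2 or fewer libraries of a fit were left out. P-values were two-sided, adjusted by Benjamini-Hochberg over all genes of a fit, with a threshold of 0.05. Fold changes on this scale understate the change of genes with low values. Interval estimates of depth were not possible, since read totals are not in the files. For genes below 0.3 FPKM in both, 39.3% to 48.3% of the ratios of a library's value to that in WT LSK replicate 1 lay within 0.005, on the natural log scale, of a ratio of whole numbers up to 6 at the best depth factor, and 2.50% to 3.26% did at the median of the factors tried. This gave relative depths, and reads were not recovered.

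Named were up to 10 called members a direction with the largest change (the 3 with the smallest p where fewer than 3 were called), up to 3 genes a direction by p from the other lists, and for differences of effects the 5 with the smallest p. As these genes were picked by p or by change, groups that do not overlap are no separate support for them. The share of all genes without overlap was taken for ITD LSK against WT LSK only. Members outside this rule were named to account for each role, with values seen. The members and lists were chosen with earlier results of these data known. The alternatives tried were another pseudocount (0.1), all genes unfiltered, scaling by quantiles or by median ratios, blocking on the replicate number, adding sex as a covariate, fitting the compared libraries alone, dropping the 1ng libraries, and dropping each library in turn. A correction for transcript GC content and length (95.2% of genes tested had values) was added after seeing the data. Scripts were tested on simulated data. Figures and summaries used Python 3.11.15, numpy 2.4.6, pandas 2.3.3 and matplotlib 3.10.9. Where a scaling is mentioned, its shift of the median of all genes ran up to 0.30 log2 units, in the comparison of IRE1_KO GMP with IRE1_KO LSK under quantile normalization.

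The replicate numbers are in the labels. Same-numbered libraries were taken to deviate together where the correlation was over 0.1 in all 3 pairs. This held for ITD GMP against ITD LSK only (0.198, 0.105 and 0.147), where the block left the count of genes called at 19. All 3 were above 0 but not all over 0.1 for WT GMP against WT LSK (0.135, 0.050 and 0.051) and IRE1_KO GMP against IRE1_KO LSK (0.236, 0.044 and 0.085). The same was true of ITD GMP against WT GMP and IRE1_KO_ITD GMP against IRE1_KO GMP (0.029 to 0.080). Same-numbered GMP and LSK libraries of a genotype had the same sex in 10 pairs and not in 2.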

Additional observations from a re-analysis of the deposited data

Results flagged for a closer look

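The effect of the duplication differed between GMP and LSK for 18 of the 48 genes, by a test of the difference itself in limma (adjusted p under 0.05 over 12348 genes). Without WT LSK replicate 2 the count was 5. As the effect in GMP minus the effect in LSK on the log2 scale, the differences in origin licensing were -1.02 for Cdc6, -0.77 for Orc1, -0.65 for Mcm4, -0.65 for Mcm7, -0.57 for Mcm5 and -0.42 for Orc6. In helicase activation they were -1.17 for Mcm10 and -0.55 for Cdc45. In the clamp loader the difference was -0.57 for Rfc4, and in Okazaki fragment joining -0.55 for Fen1. In single-strand binding they were -0.76 for Rpa1 and -0.58 for Rpa2, and in nucleotide supply -0.87 for Rrm2 and -0.75 for Rrm1. In chromatin on new DNA they were -0.71 for Uhrf1, -0.65 for Cdca7 and -0.44 for Hells, and Ccne2 stood at -1.02. The effect of the duplication in LSK also differed with the Ern1 deletion for E2f1, by -1.80. That difference uses the IRE1_KO LSK libraries, which alone carry the 1ng tag, so the alleles and the tag cannot be told apart.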

How the results depend on the processing

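Of 121 values of named genes, none turned its sign in any alternative run. These genes were picked by p or by change in the same data, so a turn of sign was unlikely from the start and its absence is no support. Over the alternatives their status as called or not was the same in 1628 refitted values, lost in 202 and gained in 4. With sex as a covariate the count of genes called was 12 for ITD LSK against WT LSK (21), 5 for IRE1_KO_ITD LSK against ITD LSK (3), and 0 for ITD GMP against WT GMP (3) and for IRE1_KO_ITD GMP against ITD GMP (1). With only the libraries compared it was 5 for IRE1_KO_ITD LSK against ITD LSK, 0 for ITD GMP against WT GMP and for IRE1_KO_ITD GMP against ITD GMP, 8 for ITD GMP against ITD LSK (19) and 8 for the difference of the ITD effects (18). Without the filter the last 2 became 12 and 10. Quantile normalization gave 8 for IRE1_KO LSK against WT LSK (15), 16 for IRE1_KO_ITD LSK against IRE1_KO LSK (8) and 8 for the difference of the ITD effects. Median-ratio scaling gave 8 for IRE1_KO LSK against WT LSK, 5 for IRE1_KO_ITD LSK against ITD LSK, 12 for ITD GMP against WT GMP, 27 for IRE1_KO GMP against IRE1_KO LSK (16) and 33 for WT GMP against WT LSK (21). The GC content and length correction, chosen after seeing the data, gave 6 for IRE1_KO LSK against WT LSK, 5 for ITD GMP against WT GMP and 27 for IRE1_KO GMP against IRE1_KO LSK. With the replicate number as a block the call in IRE1_KO_ITD GMP against ITD GMP was lost (0), and the other counts stayed within 1.5 times. Leaving out 1 library gave 10 to 22 for ITD LSK against WT LSK, 8 to 20 for IRE1_KO LSK against WT LSK, 2 to 3 for IRE1_KO_ITD LSK against ITD LSK, 5 to 9 for IRE1_KO_ITD LSK against IRE1_KO LSK, 0 to 4 for ITD GMP against WT GMP, 0 to 1 for IRE1_KO_ITD GMP against ITD GMP, 3 to 6 for IRE1_KO_ITD GMP against IRE1_KO GMP (9), 11 to 19 for ITD GMP against ITD LSK, 13 to 18 for IRE1_KO GMP against IRE1_KO LSK, 11 to 16 for IRE1_KO_ITD GMP against IRE1_KO_ITD LSK (14), 17 to 21 for WT GMP against WT LSK, 5 to 19 for the difference of the ITD effects and 1 to 3 for the difference by Ern1 allele in LSK. Apart from ITD GMP against ITD LSK, no comparison had correlations of same-numbered libraries over 0.1 in all pairs (-0.372 to 0.236). Except where a fit had fewer genes or libraries by construction, the cause was not tested.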
